A study of Mus musculus with 6 samples.

Results

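Tight junctions are the apical belts at which neighbouring epithelial cells are sealed to each other. Their strands are built of claudins, a family of 4-pass membrane proteins whose mixture sets how tight and how ion-selective the seal is, together with occludin and its MARVEL relatives, and scaffold proteins of the zonula occludens (ZO) family bind the tails of these proteins and join them to actin and to signalling proteins. In the mammary gland, tight junctions are known from the luminal layer, which borders the lumen, whereas the basal layer of myoepithelial cells and their precursors lies beneath it against the basement membrane.

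The 9 genes followed here belong to this structure and comprise 6 claudins (Cldn1, Cldn3, Cldn4, Cldn6, Cldn7 and Cldn8), occludin (Ocln), and the scaffolds ZO-1 (Tjp1) and ZO-3 (Tjp3). A probe was taken for a gene when its RefSeq accession belonged to that gene, which gave 11 probes for the 9 genes, among 55681 probes and 20660 matched genes on the array. Cldn4 and Ocln had 2 probes each and the other 7 genes had 1. For these, the probe that was brighter on average is the main one. Levels are quantile normalized log2 signals of a probe. They compare a probe between arrays. Where a gene is called the brightest of a list, or signals of a list are summed, this describes probe signal and not the relative amount of the RNAs.

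The arrays measured RNA of freshly sorted mammary cells of female C57Bl6J mice, with 3 biological replicates of each population and 1 one-color Agilent array for each. The fetal cells came from glands at embryonic day 18.5 and were gated CD31-CD45-Ter119-EpCAM++CD49f+, and the adult basal cells came from glands of mice aged 8 to 12 weeks and were gated CD31-CD45-Ter119-BP-1-EpCAM+CD49f+. No allele or treatment was given for either population. Age therefore differed between the populations together with the EpCAM gate (EpCAM++ against EpCAM+), the depletion with BP-1, which was used for adult cells only, and the length of the digestion, which was overnight for adult glands and short for fetal glands, and these cannot be told apart here. The fetal gate was not split into layers. The sources used here do not say how many animals a replicate held. Since each array is a bulk measurement, fewer cells that express a gene and less RNA in each cell cannot be told apart. Between 76.4% and 83.3% of probes on an array were well above background, and no spot was saturated.

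Of the 9 genes, 7 were higher in the fetal cells and none was higher in the adult basal cells. The 7 were Cldn3, Cldn4, Cldn6, Cldn7, Cldn8, Ocln and Tjp3. A gene was called when its log2 fold change, as fetal minus adult basal, was at least 1 in size and its p in limma's test, Holm-adjusted over 20448 probes, did not exceed 0.05. Across the main probes of all 15725 genes tested, 6.02% were called with the higher level in fetal cells and 5.2% with the higher level in adult basal cells. The median log2 fold change of the 9 genes was 4.60, against -0.04 over all genes tested. It takes in values of Cldn1 and Cldn8 that rest on adult basal signals not well above background. With another background correction (normexp) the median was 3.40. The 9 genes were chosen with earlier results of these data known, so these counts and medians are a description and not a test. In every one of the 9 genes the 3 fetal arrays lay apart from the 3 adult basal arrays, above them in 8 genes and below them in 1, which by itself is common here, since 68.4% of all genes tested did not overlap between the populations. With Benjamini-Hochberg adjustment in place of Holm, 8 of the 9 genes were called higher in fetal cells and none was called the other way, against 15.8% and 13.9% of all genes. At an unadjusted p under 0.05, again in limma, 1 gene (Tjp1) was lower in the fetal cells, with a change below 1 log2 unit. At that threshold, 31.8% of all genes tested had the higher level in fetal cells and 32% had it in adult basal cells, so that counts at an unadjusted p are given below only beside a count of 0. Counts over a list of genes are of main probes. All 9 genes passed the filter on low signal, which asked for a level above 5.95 in at least 1 population, and Cldn1, Cldn6 and Cldn8 passed it through the fetal arrays alone.

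**Figure D1:**
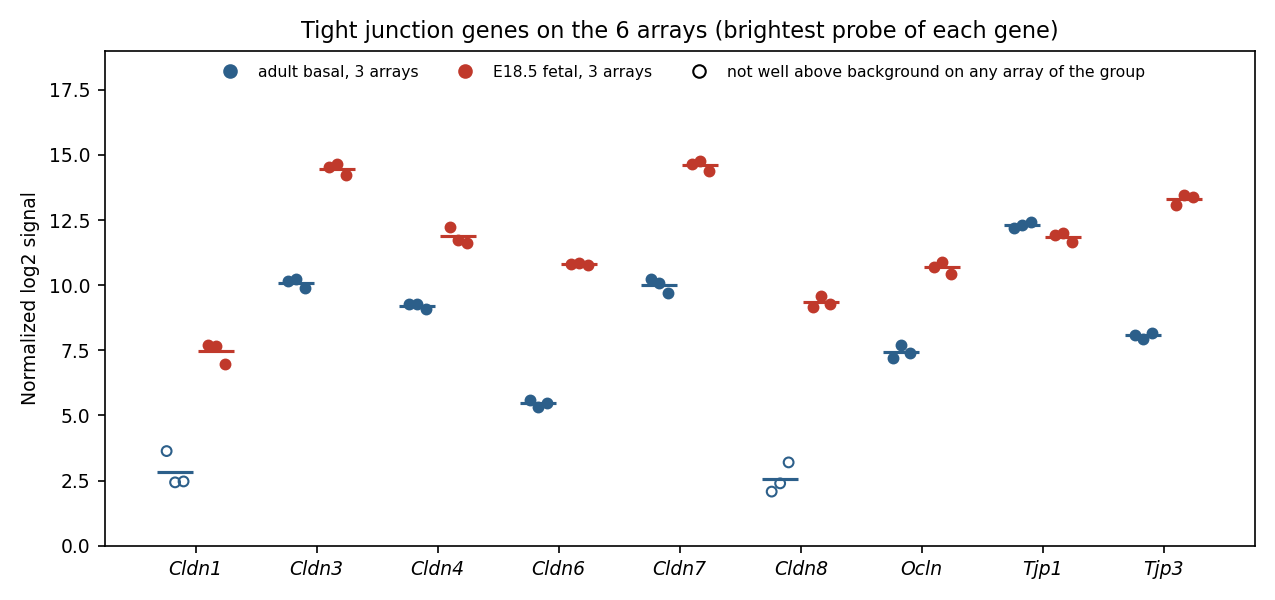
Normalized log2 signal (y axis) of the brightest probe of each tight junction gene (x axis) on the 3 adult basal arrays (blue) and the 3 fetal arrays (red), with horizontal bars at the means. The fetal points lie above the adult basal points for 8 genes and below them for Tjp1, and the open points of Cldn1 and Cldn8 mark adult basal signals that were never well above background.

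Cldn3 and Cldn4 encode sealing claudins that are neighbours in the genome, with no protein-coding gene between them. The log2 level of Cldn3 was 14.52, 14.66 and 14.25 in fetal cells and 10.15, 10.22 and 9.89 in adult basal cells. All 3 fetal arrays were high, and the gap between the populations was wide beside the spread within either (SD 0.21 and 0.18). The difference was 4.39 ± 0.15 on the log2 scale (SE, n = 3 against 3; limma, Holm-adjusted p = 0.000176), which is a 20.9-fold higher signal. Cldn4 stood at 12.24, 11.74 and 11.63 in fetal cells and at 9.29, 9.27 and 9.09 in adult basal cells. The populations did not overlap, and the difference was smaller than that of its neighbour at 2.65 ± 0.17 (6.29-fold; limma, Holm-adjusted p = 0.0172). The second Cldn4 probe differed by 3.01 ± 0.19 (limma, Holm-adjusted p = 0.0125). Taken on the same array, the gap between Cldn3 and Cldn4 was 1.73 log2 units wider in fetal than in adult basal cells (two-sided exact permutation test, p = 0.1, the smallest that 3 against 3 arrays allow). Leaving out any 1 of 5 arrays ended the call of Cldn4: its Holm-adjusted p in limma was 0.188, 0.0701 and 0.160 without adult basal replicate 1, 2 and 3, and 0.176 and 0.0691 without fetal replicate 2 and 3, with a log2 difference between 2.47 and 2.77 over all 6 omissions. Its call was also lost without the low-signal filter (0.146).

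Cldn6, a claudin known from embryonic epithelia, was well above background on all 6 arrays and far higher in fetal cells. Its log2 level was 10.81, 10.85 and 10.77 in fetal cells and 5.60, 5.31 and 5.49 in adult basal cells. The fetal arrays lay close together (SD 0.04) and far above the adult basal ones. The difference was 5.35 ± 0.11 (40.7-fold; limma, Holm-adjusted p = 5.47e-06), and it was called under all 18 other settings tried. Its size and its place among the members depended on the background correction: it was above the 5.24 of Tjp3 here, but 4.0 with normexp, below Tjp3 (4.83), Cldn7 (4.48) and Cldn3 (4.28), and 4.91 with 16 added before log2, below Tjp3 (5.16). Cldn9, the next protein-coding gene to Cldn6 in the genome and also a claudin, stood at 9.97, 9.92 and 10.00 in fetal cells and 9.01, 9.27 and 8.90 in adult basal cells. That is a difference of 0.90 ± 0.12, without overlap but under 1 log2 unit. The gap between Cldn6 and Cldn9 on the same array changed by 4.44 log2 units between the populations (two-sided exact permutation test, p = 0.1, again the smallest possible). Whether a probe also binds the RNA of a related claudin could not be examined, since probe sequences were not used here.

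Cldn7, a claudin that binds EpCAM and also lies along the lateral membrane, had log2 levels of 14.64, 14.76 and 14.40 in fetal cells and 10.22, 10.09 and 9.69 in adult basal cells. The fetal arrays were again all high, with no overlap. The difference was 4.60 ± 0.17 (24.2-fold; limma, Holm-adjusted p = 0.000327). EpCAM was itself one of the sort antigens, with a brighter gate for the fetal cells, and the part of the gate in the Cldn7 result was not tested.

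On the adult basal arrays, Cldn8 and Cldn1 were never well above background, so their differences are bounds. Cldn8, a claudin best known from the distal tubule of the kidney, stood at 9.15, 9.59 and 9.29 in fetal cells and at 2.08, 2.39 and 3.20 in adult basal cells. All 3 fetal arrays were well above background, and the RNA was at least 47.3-fold higher in fetal cells with the adult level set to the dimmest signal that still stood well above background on each array (limma, Holm-adjusted p = 0.000783). Cldn1, a claudin required for the barrier of the epidermis, stood at 7.72, 7.67 and 6.98 in fetal cells and at 3.63, 2.43 and 2.47 in adult basal cells. The populations were again far apart, and the bound was at least 11.7-fold under the same background subtraction, but the adult basal arrays varied widely (SD 0.68) and the gene missed the call (limma, Holm-adjusted p = 0.0545). Both bounds depended on the background correction: with normexp the log2 difference was 3.40 for Cldn8 and 1.75 for Cldn1, and with 16 added before log2 it was 4.91 and 3.03, all below the bounds, which are 5.56 and 3.54 on that scale. Adult basal replicate 1 was the highest of the 3 adult basal arrays for Cldn1, and without it the gene was called (Holm-adjusted p = 0.0133 in limma).

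Occludin, the first membrane protein found in tight junctions, rose with the claudins. The log2 level of its main probe was 10.69, 10.91 and 10.45 in fetal cells and 7.19, 7.72 and 7.40 in adult basal cells. The populations did not overlap. The difference was 3.24 ± 0.18 (9.46-fold; limma, Holm-adjusted p = 0.00499). The second probe of Ocln, which was well above background on 1 of the 3 adult basal arrays, differed by 5.0 ± 0.23 (limma, Holm-adjusted p = 0.00169). The probes thus shared a direction. Most adult basal signals of the second probe were not well above background, so its size is not set against that of the main probe. The cause of the gap in size was not tested. The call of the main probe was lost without adult basal replicate 3 (limma, Holm-adjusted p = 0.0616) and without fetal replicate 1 or 2 (0.105 and 0.0516), with a log2 difference between 3.12 and 3.38 over all 6 omissions, and also without the low-signal filter (0.0514).

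The scaffolds Tjp3 and Tjp1 did not move together. Tjp3 encodes ZO-3, which is largely confined to epithelia. Its log2 level was 13.09, 13.46 and 13.37 in fetal cells and 8.10, 7.93 and 8.18 in adult basal cells. The fetal arrays were all high, the difference was 5.24 ± 0.13 (37.8-fold; limma, Holm-adjusted p = 2.48e-05), and it was called under all 18 other settings tried. Tjp1 encodes ZO-1, which also binds at adherens junctions and is found in many cell types. Its log2 level was 11.92, 12.00 and 11.66 in fetal cells and 12.20, 12.33 and 12.41 in adult basal cells. Here the adult basal arrays were the higher ones, by a small margin without overlap, and the difference was -0.45 with a 95% confidence interval from -0.75 to -0.16 (limma, Holm-adjusted p = 1.00), so that a change of 1 log2 unit lay outside the interval. On the same array, the gap between Tjp3 and Tjp1 changed by 5.69 log2 units between the populations (two-sided exact permutation test, p = 0.1, the smallest possible). This p was fixed in advance, because each gene separated the populations and in opposite directions, so the test decides nothing.

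**Figure D2:**
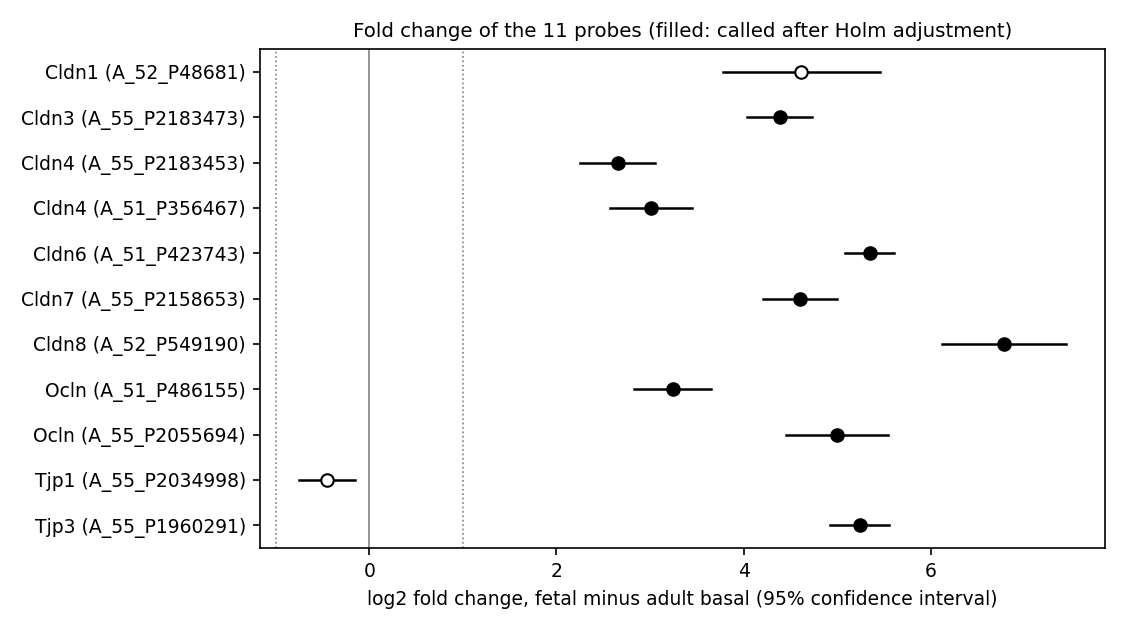
Log2 fold change, fetal minus adult basal (x axis), of the 11 probes of the 9 genes (y axis), with 95% confidence intervals from limma; filled points were called, and dotted lines mark a change of 1 log2 unit in either direction. Tjp1 is the only probe left of 0. The points of Cldn1 (4.62) and Cldn8 (6.79) are limma estimates that rest on adult basal signals not well above background. They lie above the bounds, which are 3.54 and 5.56 on this scale.

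The 6 arrays lay on 2 slides, and each slide held both populations. On slide 1 (fetal replicate 1, adult basal replicates 1 and 3) the fetal minus adult basal difference of the 6 called genes well above background on all arrays ran from 3.05 for Cldn4 and 3.39 for Ocln to 5.27 for Cldn6, and that of Tjp1 was -0.39. On slide 2 (fetal replicates 2 and 3, adult basal replicate 2) it ran from 2.41 for Cldn4 and 2.96 for Ocln to 5.50 for Cldn6, and that of Tjp1 was -0.50. For Cldn8 (6.51 and 7.05) and Cldn1 (4.67 and 4.90) the differences on slides 1 and 2 rest on adult basal signals that were not well above background. All 9 genes therefore kept their direction within each slide. With slide as a block, the same 7 of the 9 genes were called higher in fetal cells.

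Upstream sequences of the genes are shown because claudin and occludin promoters are known targets of the repressors Snail, Slug and ZEB, which bind the E2-box CAGGTG. RefSeq windows of 300 bases, 250 before and 50 after an annotated start (assembly GRCm38.p6), were found for 8 of the 9 genes, with Cldn8 not among them. The motif CAGGTG was searched on both strands, so that it also reads CACCTG. It was present in a window of 6 of the 8 genes (Cldn3, Cldn4, Cldn6, Cldn7, Ocln and Tjp3) and in none of Cldn1 and Tjp1, whereas 22.6% of the 27025 genes with a window held it. The 250 bases upstream of the start are given for a claudin pair, occludin and both scaffolds, 5′ to 3′ on the strand of the gene, with the motif in capitals.

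Cldn4, chr5:134946935-134947184, minus strand: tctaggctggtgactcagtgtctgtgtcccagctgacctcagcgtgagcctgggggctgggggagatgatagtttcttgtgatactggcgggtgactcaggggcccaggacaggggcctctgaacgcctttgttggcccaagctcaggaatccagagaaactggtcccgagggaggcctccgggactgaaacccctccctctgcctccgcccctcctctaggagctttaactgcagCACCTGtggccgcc

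Cldn6, chr17:23679115-23679364, plus strand: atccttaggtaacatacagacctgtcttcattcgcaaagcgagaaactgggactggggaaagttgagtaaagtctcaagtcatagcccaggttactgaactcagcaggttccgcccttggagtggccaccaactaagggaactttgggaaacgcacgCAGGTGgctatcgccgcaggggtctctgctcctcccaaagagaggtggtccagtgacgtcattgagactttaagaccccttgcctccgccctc

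Ocln, chr13:100552499-100552748, minus strand: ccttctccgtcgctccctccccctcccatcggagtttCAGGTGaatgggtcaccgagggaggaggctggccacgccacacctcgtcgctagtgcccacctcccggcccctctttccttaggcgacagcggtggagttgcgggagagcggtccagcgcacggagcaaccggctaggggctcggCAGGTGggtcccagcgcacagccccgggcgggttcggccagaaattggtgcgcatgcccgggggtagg

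Tjp3, chr10:81291268-81291517, minus strand: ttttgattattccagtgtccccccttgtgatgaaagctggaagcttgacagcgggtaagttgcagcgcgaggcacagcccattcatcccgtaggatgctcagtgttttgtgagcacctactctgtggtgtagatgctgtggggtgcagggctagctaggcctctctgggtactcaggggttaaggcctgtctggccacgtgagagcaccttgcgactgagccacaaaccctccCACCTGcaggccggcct

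Tjp1, chr7:65371245-65371494, minus strand: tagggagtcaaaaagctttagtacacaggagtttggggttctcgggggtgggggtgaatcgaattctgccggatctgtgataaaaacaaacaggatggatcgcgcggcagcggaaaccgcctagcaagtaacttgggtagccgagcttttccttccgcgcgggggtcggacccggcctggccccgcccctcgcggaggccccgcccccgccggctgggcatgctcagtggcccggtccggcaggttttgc

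Counted from the start site, the motif began at position -14 in Cldn4, -93 in Cldn6, -213 and -68 in Ocln and -17 in Tjp3. Further matches lay after the start in Cldn3, Cldn4 and Cldn6 and, at -97 and -57, before a second start of Cldn7. A second window of Tjp3 held another match, and the match of a second Ocln window was the same site as that at -213. Among all 32851 windows, 17.2% had the motif in the 250 upstream bases. The motif AACNGGTT of the grainyhead factors (N is any base), also searched on both strands, was in no window of the 8 genes and in 2.1% of all windows. A match is a description of the letters, and none of these sites was measured here.

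Among 5 tested genes of repressors that act in epithelial-mesenchymal transition (EMT), Snai2 and Zeb1 were lower in the fetal cells and the other 3 were not called. Snai2 (Slug) stood at 10.73, 10.70 and 10.65 in fetal cells and at 12.96, 13.45 and 13.16 in adult basal cells. All adult basal arrays were the higher ones, and the difference was -2.50 ± 0.14 (limma, Holm-adjusted p = 0.00644). Zeb1 stood at 4.14, 3.99 and 4.0 in fetal cells, where it was well above background on 1 of 3 arrays, and at 6.39, 6.79 and 6.59 in adult basal cells. Again the populations did not overlap, with a difference of -2.55 ± 0.13 (limma, Holm-adjusted p = 0.00323), which with a normexp background correction was -0.95 and not called (0.135). Of the 6 genes listed, none was called higher in fetal cells. None was higher in fetal cells at an unadjusted p under 0.05 either, and with Benjamini-Hochberg adjustment all 5 were called lower in limma. Over all genes tested, 5.2% were called lower in fetal cells with Holm and 13.9% with Benjamini-Hochberg adjustment. Snai1 (Snail), the brightest of those not called, differed by -1.93 ± 0.34 (Holm-adjusted p = 1.00), and Twist1, never well above background in the fetal cells, was not tested. The call of Snai2 was lost without adult basal replicate 3 (limma, Holm-adjusted p = 0.0713) or any 1 of the 3 fetal arrays (0.123, 0.114 and 0.101) and without the low-signal filter (0.0576), and that of Zeb1 without any 1 of the 3 fetal arrays (0.0528, 0.0659 and 0.0567).

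Of 11 transcription factors listed for their role in epithelial genes (grainyhead, OVO-like, ETS, Krüppel-like and AP-2 factors), 5 were called higher in fetal cells and none lower, against 6.02% and 5.2% of all genes tested, with a median log2 fold change of 2.12. At an unadjusted p under 0.05 in limma, 9 were higher and 1 was lower, against 31.8% and 32% of all genes tested. Grhl3, a grainyhead factor of barrier epithelia, stood at 11.80, 11.99 and 11.82 in fetal cells and at 7.23, 7.49 and 7.11 in adult basal cells. All fetal arrays were the higher ones, by 4.59 ± 0.13 (limma, Holm-adjusted p = 4.96e-05). With normexp the difference of Grhl3 was 3.97. Elf5, an ETS factor of alveolar cells, stood at 12.60, 12.82 and 12.53 against 4.88, 5.0 and 5.41, a difference of 7.55 ± 0.16 (limma, Holm-adjusted p = 7.54e-06), or 6.09 with normexp. The other 3 called genes were smaller in their change: Elf3 rose by 2.02, Ehf by 2.32 and Klf5 by 2.12 on the log2 scale. The second Ehf probe differed by 7.60. Ehf lost its call without fetal replicate 2 (limma, Holm-adjusted p = 0.0576). Klf5 lost its call without any 1 of the 6 arrays (0.0771 to 0.412) or without the low-signal filter (0.212). It lost it as well when probes without a gene were also tested (0.0587). Grhl2, the grainyhead factor best known from claudin regulation, differed by 0.49 ± 0.13, Grhl1 by 2.36 (Holm-adjusted p = 0.0720) and Ovol1 by 2.54 (0.0782) in limma. Tfap2c, the brightest of those not called, differed by -1.40 ± 0.30.

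**Figure D3:**
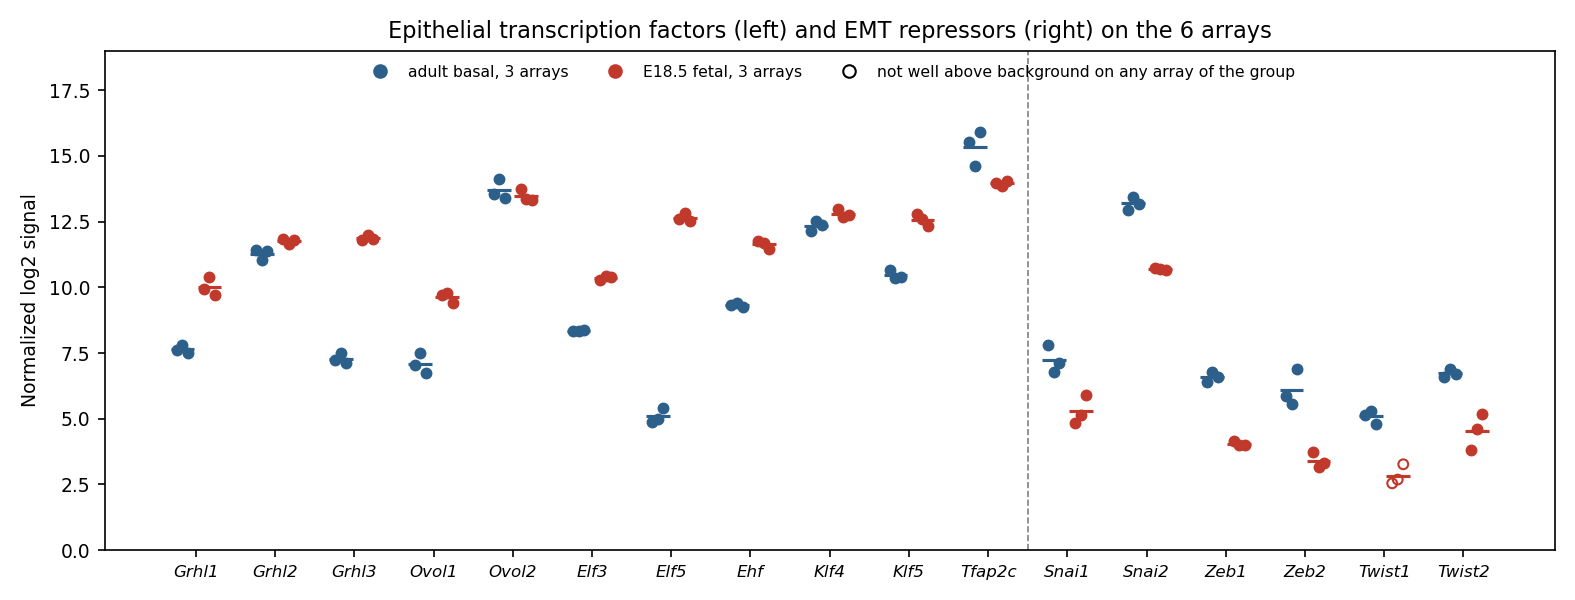
Normalized log2 signal (y axis) of the 11 epithelial transcription factors (left of the dashed line) and the 6 EMT repressors (right) on the 3 adult basal arrays (blue) and the 3 fetal arrays (red), with bars at the means. Grhl3 and Elf5 show the widest gaps on the left, and every repressor has its fetal points below its adult basal points. Such separation by itself is common here, since 68.4% of all genes tested did not overlap between the populations.

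Of 51 other claudins, MARVEL proteins, angulins, junctional adhesion molecules, plaque proteins and polarity proteins listed, 46 were tested, 6 were called higher in fetal cells and 1 was called higher in adult basal cells, with a median log2 fold change of -0.14, beside 6.02% and 5.2% called and a median of -0.04 over all genes tested. Among the 17 other claudins, 13 were tested and 2 were called, both higher in fetal cells. These were Cldn22, which was at least 7.22-fold higher and never well above background in adult basal cells (limma, Holm-adjusted p = 0.0160; 1.33 on the log2 scale and not called with normexp, 0.0845), and Cldn11, the claudin of myelin and of Sertoli cells, at 1.57 ± 0.12 (0.0459; 0.97 and not called with normexp). Cldn12, the brightest of those not called, differed by -0.92 ± 0.12, and Cldn5, the claudin of endothelium, by -1.40 ± 0.29 (Holm-adjusted p = 1.00 for both in limma). At an unadjusted p under 0.05, 5 of the other claudins were higher and 2 lower in fetal cells, against 31.8% and 32% of all genes. With Benjamini-Hochberg adjustment, 3 were called higher and 1 lower, against 15.8% and 13.9% of all genes. Cldn10, not called, differed by 2.29. Cldn11 lost its call with slide as a block (limma, Holm-adjusted p = 0.189; 1.51 and 1.53 within the slides) and without any 1 of the 6 arrays (0.108 to 0.650), and Cldn22 without adult basal replicate 1 (0.217) or any 1 of the fetal arrays (0.157 to 0.227). Both calls were also lost without the low-signal filter (0.271 and 0.154), and that of Cldn11 when probes had to be well above background (0.0755). The call of Cldn11 was lost as well when probes without a gene were also tested (limma, Holm-adjusted p = 0.0938).

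Of the 10 MARVEL proteins, angulins and junctional adhesion molecules, 2 were called higher and 1 was called lower in fetal cells. Over all genes tested, the shares were 6.02% and 5.2%. With Benjamini-Hochberg adjustment, 2 were called higher and 3 lower, against 15.8% and 13.9% of all genes. Marveld2, which encodes tricellulin of the 3-cell contacts and is the neighbour of Ocln in the genome, stood at 10.70, 10.71 and 10.39 in fetal cells and at 8.20, 7.98 and 8.32 in adult basal cells. It was higher on all fetal arrays, by 2.43 ± 0.14 (limma, Holm-adjusted p = 0.00745). Marveld3, the third junctional protein of this family, differed by 3.22 ± 0.11 (limma, Holm-adjusted p = 0.000261), and its second probe by 4.12. F11r, which encodes junctional adhesion molecule A, went the other way, with 13.24, 13.17 and 13.19 in fetal cells and 14.75, 14.95 and 15.08 in adult basal cells. Its difference was -1.72 ± 0.11 (limma, Holm-adjusted p = 0.0203). The gap between Cldn3 and F11r on the same array changed by 6.11 log2 units and that between Ocln and F11r by 4.97 (two-sided exact permutation tests, p = 0.1 for each, the smallest possible). Both p were fixed in advance, because the genes of each pair separated the populations in opposite directions, so these tests decide nothing. Cxadr, an adhesion protein of the same superfamily and the brightest of those not called, differed by -1.15 ± 0.20. Esam, also not called, differed by -3.77 ± 0.47 and was well above background on 1 of the 3 fetal arrays. Marveld2 lost its call without adult basal replicate 1 (limma, Holm-adjusted p = 0.0945) or fetal replicate 1 or 2 (0.135 and 0.117), and F11r with slide as a block (0.136; -1.67 and -1.77 within the slides) and without any 1 array except adult basal replicate 1 (0.0816 to 0.333). Both lost it without the low-signal filter (0.0650 and 0.132).

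Cingulin (Cgn), which ties the ZO plaque to actomyosin, was the 1 called gene of the 12 plaque proteins. It stood at 11.56, 11.82 and 11.15 in fetal cells and at 7.19, 7.14 and 6.97 in adult basal cells. All fetal arrays were high, by 4.41 ± 0.18 (limma, Holm-adjusted p = 0.000634), and the call held under all 18 other settings. Its paralog Cgnl1 differed by 1.28 ± 0.18, and Ybx3, a Y-box factor that binds ZO-1 and the brightest of those not called, by -0.40 ± 0.11 (Holm-adjusted p = 1.00 for both in limma). No plaque gene was called lower in fetal cells, while 4 were higher and 6 lower at an unadjusted p under 0.05 in limma. With Benjamini-Hochberg adjustment, 4 were called higher and 1 lower. Over all genes tested, 6.02% were called higher and 5.2% lower with Holm adjustment, and 15.8% and 13.9% with Benjamini-Hochberg adjustment. At the unadjusted threshold the shares were 31.8% and 32%. The 1 Holm call among 12 plaque genes was thus near the share over all genes. Magi3 (2.09), Amot (1.18) and, in the other direction, Amotl1 (-1.16) were among those not called with Holm adjustment. The 2 probes of Magi1 differed in sign, at -0.67 and 0.54.

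Among the 12 apical polarity proteins, 11 were tested and Pard6b, an adaptor of the Par complex, was the 1 called gene, at 2.97 ± 0.22 (limma, Holm-adjusted p = 0.0477), or 1.75 and still called with normexp. Its call was lost with slide as a block (limma, Holm-adjusted p = 0.0557), with differences of 3.08 and 3.09 within the slides. It was also lost without any 1 array except adult basal replicate 3 (0.148 to 0.508) and without the low-signal filter (0.374). The same held when probes had to be well above background (0.0753) or when probes without a gene were also tested (0.0974). Crb3, an apical membrane protein that recruits this machinery, differed by 2.05 ± 0.16 and missed the call (limma, Holm-adjusted p = 0.0555). The second probe of Crb3 differed by 0.995 ± 0.14. Prkci, the atypical protein kinase C of the complex and the brightest of those not called, differed by -0.77 ± 0.18. One of 4 probes of Pard3 rose by 1.74 (limma, Holm-adjusted p = 0.0173), while its main probe differed by -0.10. No polarity gene was called lower in fetal cells, while 3 were higher and 6 lower at an unadjusted p under 0.05 in limma. With Benjamini-Hochberg adjustment, 2 were called higher and 1 lower. Across all genes tested, the shares higher and lower were 6.02% and 5.2% with Holm and 15.8% and 13.9% with Benjamini-Hochberg adjustment. They were 31.8% and 32% at the unadjusted threshold. The 1 Holm call among 11 tested polarity genes was thus near the share over all genes.

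**Figure D4:**
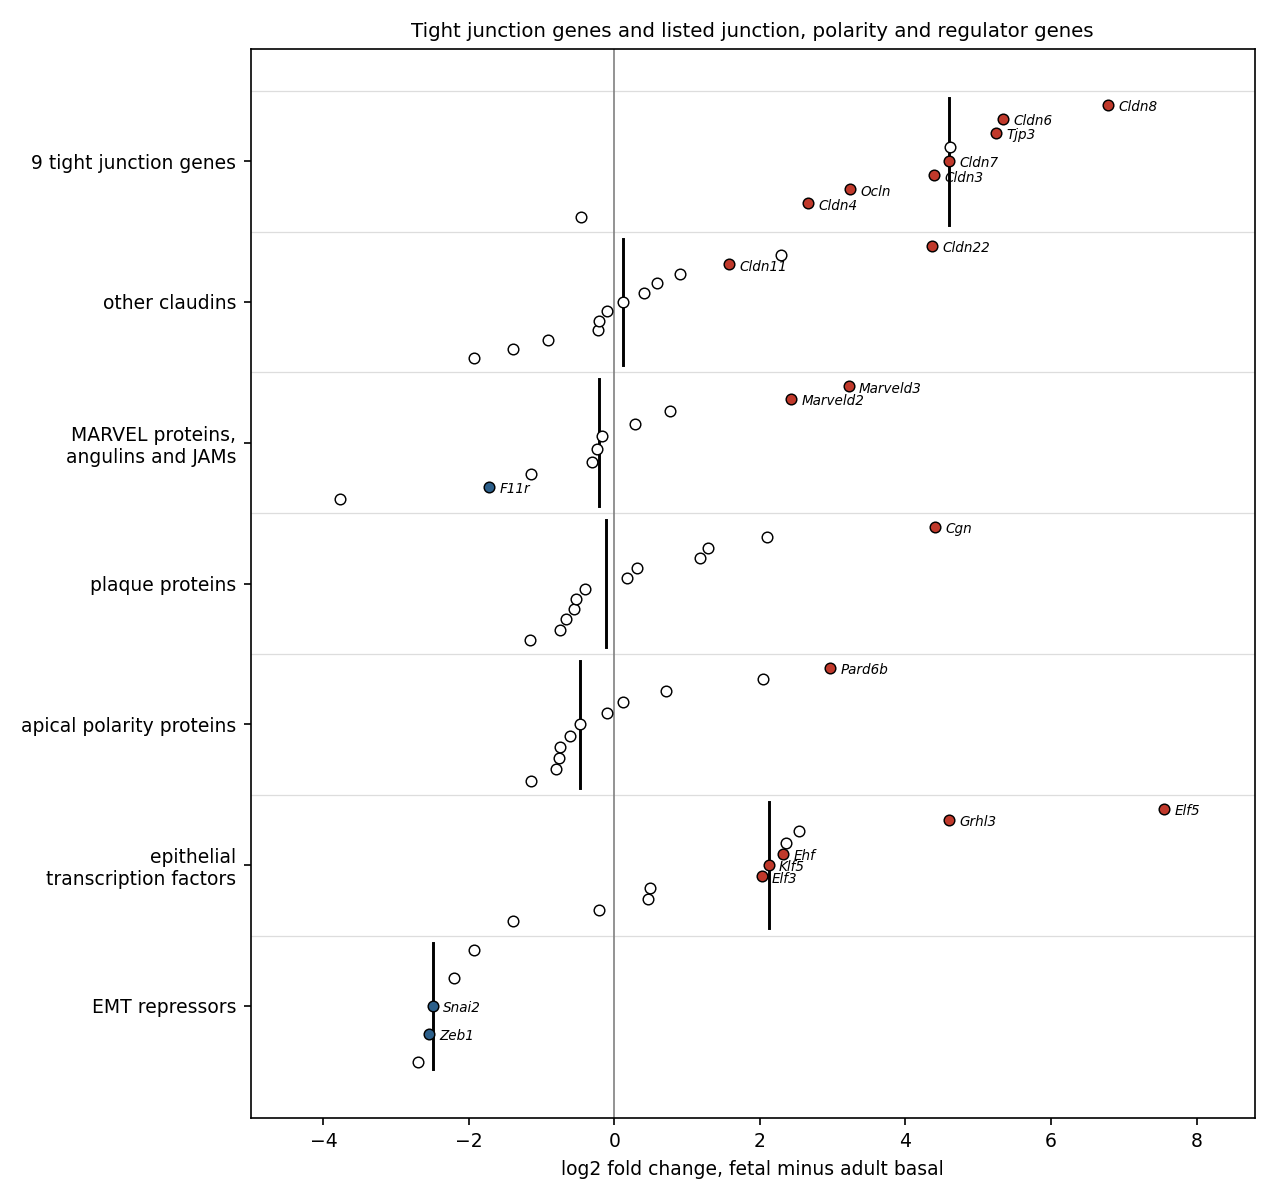
Log2 fold change, fetal minus adult basal (x axis), of the main probe of each gene tested in the 9 tight junction genes and in 6 further lists (y axis), with vertical bars at the list medians and filled, named points for called genes. The 9 genes centre on 4.60, the medians of the 4 other junction and polarity lists lie between -0.48 and 0.12, the epithelial transcription factors centre on 2.12 and the EMT repressors on -2.50.

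Markers of the cell layers were examined beside the junction genes. Of 10 basal and myoepithelial markers, 8 were lower in the fetal cells and none was higher, even at an unadjusted p under 0.05 or with Benjamini-Hochberg adjustment in limma, against 5.2% of all genes called lower. Their summed signal, as log2, reached 16.53, 16.40 and 16.22 in fetal samples, against 20.23, 20.18 and 20.19 in adult basal samples. The brightest was Acta2, smooth muscle actin, at -4.07 ± 0.16 (limma, Holm-adjusted p = 0.000488), and Krt14, the brightest of those not called, differed by -1.20 ± 0.51. The reading of Trp63 depended on the probe. Its main probe, also not called, differed by -0.08, and its second probe by -3.06 ± 0.10 (limma, Holm-adjusted p = 0.00019). Of the 8, Krt5 lost its call without adult basal replicate 1 (Holm-adjusted p = 0.0508 in limma) or fetal replicate 1 (0.0563). Each of the 10 was well above background on every array, and the adult basal arrays carried the markers of their label. Of 12 luminal markers, 11 had their main probe tested and 5 were higher in the fetal cells, against 6.02% of all genes, which were Foxa1 (6.46, or 5.70 with normexp), Kit (4.0), Prom1 (2.30), Cd24a (2.15) and Pgr (2.13, log2 differences). Their summed log2 signal reached 17.80, 17.84 and 17.53 in fetal samples, against 17.06, 16.98 and 17.00 in adult basal samples. Of the 5, Kit kept its call without any 1 array, whereas Prom1 lost it without any 1 fetal array (Holm-adjusted p = 0.0797 to 0.107 in limma), Foxa1 without adult basal replicate 3 or any 1 fetal array (0.0791 to 0.139) or with trend and robust eBayes (0.103), Cd24a without any 1 array except adult basal replicate 2 (0.0537 to 0.207) and Pgr with slide as a block (0.0810) or without any 1 except adult basal replicate 1 (0.0551 to 0.232). Without the low-signal filter, Foxa1 (0.0816), Cd24a (0.0876) and Pgr (0.0975) lost their calls. The brightest luminal marker, Krt18, differed by 0.58 ± 0.13 and was not called, nor were Krt8 (0.44) and Gata3 (0.15), while Krt19 (-1.22), Krt7 (-1.29), Muc1 (-0.48) and the 1 tested probe of Esr1 (-3.58) had lower levels in fetal cells and were not called. No luminal marker was called lower, while Krt19, Krt7 and Muc1 were lower at an unadjusted p under 0.05, as was the Esr1 probe, which is not its main probe (unadjusted p = 1.48e-05 in limma). Over main probes, 7 were higher and 3 lower at that threshold, against 31.8% and 32% of all genes tested. With Benjamini-Hochberg adjustment, 5 luminal markers were called higher and 2 lower, against 15.8% and 13.9% of all genes. The summed log2 signal of the 9 tight junction genes reached 16.11, 16.24 and 15.92 in fetal samples, against 12.99, 13.06 and 13.02 in adult basal samples. The 8 basal markers and the 5 luminal markers thus differed between the same samples as the junction genes, and their part in the result was not tested.

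Markers of other cells that a gate could hold were also read, and their counts stand against the same 6.02% of all genes called higher and 5.2% called lower in fetal cells. Of 8 salivary gland markers, 6 were tested, 3 were higher in fetal cells (Dcpp1 by 8.60, Aqp5 by 5.79 and Smr3a, which was at least 69.1-fold higher) and Bhlha15 was lower by -3.73. Amy1, not called, differed by -1.19. With Benjamini-Hochberg adjustment, 3 salivary markers were called higher and 2 lower, against 15.8% and 13.9% of all genes. The sizes of Smr3a and Dcpp1 depended on the background correction: Smr3a, whose bound is 6.11 on the log2 scale, differed by 4.09 with normexp and 5.65 with 16 added before log2, and Dcpp1 by 5.92 and 7.38. Averaging the probes of a gene gave 4.89 for Aqp5. Their summed log2 signal reached 14.33, 14.47 and 14.52 in fetal samples, against 11.61, 11.95 and 11.58 in adult basal samples, the brightest was Aqp5, and Smgc was on no array well above background. Of 7 epidermal markers on the array, 5 were tested and Krt10, the brightest, was higher by 1.47 ± 0.10 (limma, Holm-adjusted p = 0.0221), a call lost with slide as a block (0.105) or without any 1 of the 6 arrays (0.0788 to 0.276), without the low-signal filter (0.121) or with the probes of a gene averaged (0.179), with summed log2 signals of 11.22, 10.93 and 10.99 against 9.62, 9.74 and 9.61. Krtdap (4.11), Krt1 (1.95) and Lor (0.87) also had higher levels on all fetal arrays than on any adult basal array and were not called. In 68.4% of all genes tested the populations did not overlap, in either direction. No epidermal marker was lower in fetal cells, even at an unadjusted p under 0.05, where 4 were higher, as were 3 with Benjamini-Hochberg adjustment. Of all genes tested, 31.8% were higher at the unadjusted threshold and 15.8% with Benjamini-Hochberg adjustment. Ivl and Dsg1a were well above background on 1 fetal array each and on no adult basal array. Dcpp1, Aqp5, Smr3a and Krt10 thus rose in the same samples as the junction genes. The levels of Krtdap, Krt1 and Lor were also higher there, and those of Bhlha15 and Amy1 were lower. The part of these markers in the result was not tested. Of 8 fibroblast markers, 7 were tested and 2, Pdgfrb (-4.34, or -2.93 with normexp) and Dcn (-3.78), were lower in fetal cells, the latter not without fetal replicate 1 (Holm-adjusted p = 0.0523 in limma), with summed log2 signals of 12.42, 12.49 and 12.79 against 13.97, 14.18 and 14.70. Col1a2 was the brightest of them, and Dpt was on no fetal array well above background. No fibroblast marker was higher in fetal cells, even at an unadjusted p under 0.05. No endothelial gene of 5 tested and no leukocyte gene of 7 tested was called in limma. At an unadjusted p under 0.05, 3 endothelial genes and 1 leukocyte gene were lower in fetal cells and none was higher, and the counts were the same with Benjamini-Hochberg adjustment. The shares of all genes lower in fetal cells were 32% at the unadjusted threshold and 13.9% with Benjamini-Hochberg adjustment. Summed log2 signals were 13.59, 13.40 and 13.63 in fetal against 13.66, 13.77 and 13.49 in adult basal cells for the 8 endothelial genes, where Kdr was the brightest, and 15.07, 14.81 and 14.68 against 14.58, 15.04 and 14.76 for the 7 leukocyte genes, where Itgam was the brightest. Erg was well above background on no array, and Tek and Tie1 on no fetal array.

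Genes with a profile over the 6 arrays most like that of Cldn6 were sought among 16301 probes well above background on all arrays, by the root mean square difference of the centred log2 levels. The nearest 5 were Fras1, a protein of the epithelial basement membrane (0.07), Coro2a, an actin-binding coronin (0.11), Tjp3 (0.13), Espl1, the separase of chromosome segregation (0.14), and Mal2, a protein of apical transport (0.15). Their log2 fold changes lay between 5.12 and 5.27. One of the 5 was thus itself among the 9 tight junction genes. The measure takes in the size of the fold change, which was 5.35 for Cldn6 and 5.24 for Tjp3. With normexp these were 4.0 and 4.83, and likeness was not sought under that setting.

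The calls of 5 genes (Cldn3, Cldn6, Cldn7, Cldn8 and Tjp3) were made under all 18 other settings, which included leaving out each array, and no gene of the 9 changed direction under any of them. Tjp1 was called under none. The size of the difference depended on the background correction for the dim probes: with a normexp correction Cldn8 differed by 3.40, Cldn6 by 4.0 and Cldn1 by 1.75 on the log2 scale.

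**Figure D5:**
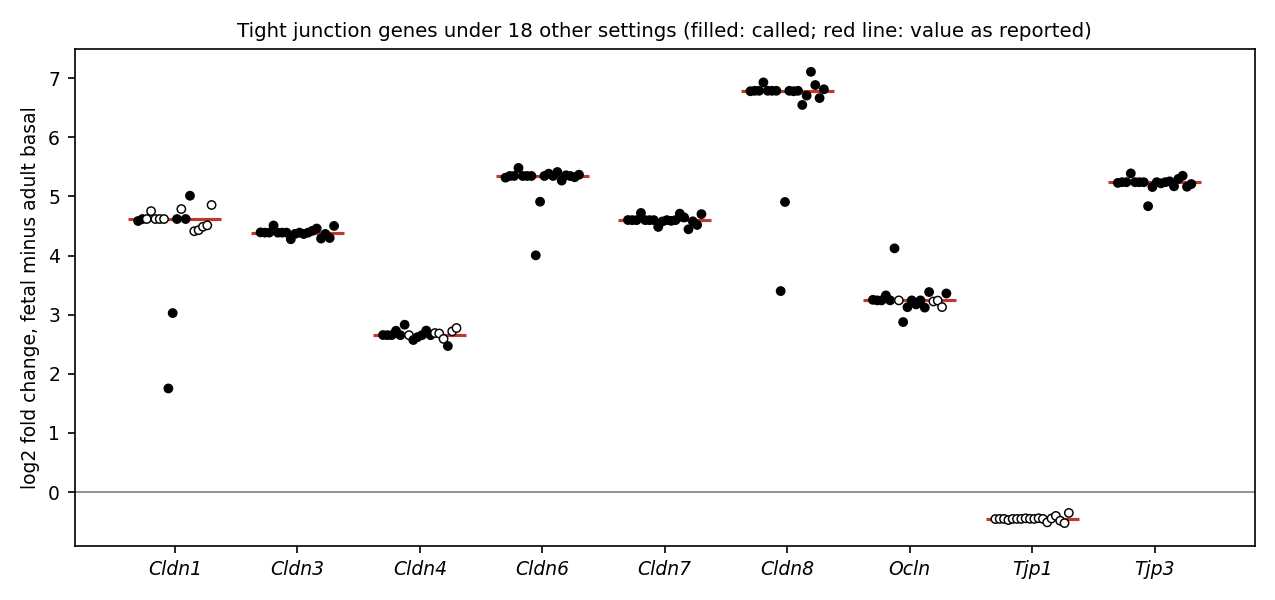
Log2 fold change, fetal minus adult basal (y axis), of the main probe of each tight junction gene (x axis) under 18 other settings of normalization, filter, adjustment, model or arrays used (points, filled where called), with the reported value as a red line. The lowest points of Cldn1, Cldn6 and Cldn8 come from the normexp background correction, at 1.75, 4.0 and 3.40, and all points of Tjp1 lie below 0. For Cldn1 and Cldn8 the red line is the limma estimate and not the bound.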

How the data were processed

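RNA of 3 fetal and 3 adult basal samples was hybridized to one-color Agilent mouse arrays. Per the labels the RNA was labelled with the Low Input Quick Amp kit, whereas the study's methods name its whole-transcript exon version. The authors deposited the spot intensity of each array, processed with Feature Extraction 11.0.1.1, which subtracts background within an array, and a table of quantile normalized log2 values. The log2 values used here were computed from the deposited processed intensity: control spots and outlier flags (104 to 326 spots on an array) were left out, the spots of each probe were averaged, and quantile normalization was applied over the 6 arrays. Probes were named through RefSeq accessions of assembly GRCm38.p6 (27235 of 55681 matched), since the array's own design names an older build, and no coordinate of a probe is given. Probes below the boundary of the lowest of 3 k-means clusters (5.95) in fetal as well as adult basal cells were dropped (20448 kept).

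The populations were compared with limma 3.58.1 (lmFit, then eBayes; R 4.3.3). A call needed a Holm-adjusted p up to 0.05 and a log2 difference of 1 or more in either direction. Where a probe was never well above background in a population, its fold is a bound, which sets its level on each array to the dimmest signal that still stood well above background, or to its own signal where that was higher. For each list, genes called and the brightest gene not called are named, with others where a role or neighbour bears on a member. The 9 genes and all lists were chosen with earlier results of these data known. The fit was tested on simulated data. Tables and plots were made with Python 3.11.15, pandas 2.3.3, numpy 2.4.6 and matplotlib 3.10.9. The alternatives were 75th percentile normalization, the deposited log2 table, normexp correction (offset 50, on median spot intensity), no filter on low signal, keeping probes well above background on every array of a population, testing also probes without a gene, Benjamini-Hochberg adjustment, trend and robust eBayes, 16 added before log2, omission of each array, replicate number or slide as a block, and averaging the probes of a gene. The number of arrays limits the precision.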

Additional observations from a re-analysis of the deposited data

How the results depend on the processing

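With 3 arrays in each population, the calls near the threshold depended on single arrays, while no direction changed: all 162 values of the 9 genes under the 18 alternatives kept their sign, 145 kept their side of the threshold, 10 lost the call and 7 gained it. The 10 losses were of Cldn4 and Ocln and the 7 gains of Cldn1. The number of the 9 genes called higher in fetal cells lay between 5 and 8, with 5 when no low-signal filter was used, and also when adult basal replicate 3 or fetal replicate 2 was left out. Of 666 values of other named genes, 550 kept their side, 101 lost the call, 15 gained it and none reversed.

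The number of probes called among all (2270) fell to 1182 without the low-signal filter and rose to 6133 with Benjamini-Hochberg adjustment, and it lay between 952 and 2014 when 1 array was left out, lowest without fetal replicate 1. The median log2 fold change of the 9 genes (4.60) was 3.40 after normexp correction, 4.37 when 16 was added before log2, and between 4.43 and 4.71 with 1 array left out. The number of other junction, polarity and regulator genes called (14 of 62 tested) was 7 without the filter and 30 with Benjamini-Hochberg adjustment, and 5 to 12 with 1 array left out, lowest without fetal replicate 2. Apart from the change of adjustment and the fewer arrays, the cause of these changes was not tested.

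Replicate numbers did not pair the samples: deviations of same-numbered arrays correlated at -0.03, 0.09 and 0.05, and 3 of 6 arrays correlated best with their own number. With the replicate block, 1302 probes and 6 of the other listed genes were called, and 8 of the 9 tight junction genes, with Cldn1 gained (Holm-adjusted p = 0.0212 in limma).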
